A study of Mus musculus with 8 samples.

Results

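The mitochondrial ribosomal protein genes are the nuclear genes, named Mrpl for the large and Mrps for the small subunit, whose proteins build the ribosome inside mitochondria. They were taken as the rows of the deposited raw count table whose gene symbol is Mrpl or Mrps followed by a number and, in a few cases, a letter from a to c, and whose counts over the 8 libraries summed to 100 or more. The rule matched 76 rows and kept 75 of 41128 genes, 46 of the large and 29 of the small subunit. Mrpl53 was left out with a count sum of 4. Symbols in the file decided membership, so Mrpl30, whose row has no symbol, and Mrpl58, listed under the older symbol Ict1, are not among the 75.

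The samples were left ventricles of 8 mice of the FVB strain, aged 8 to 12 weeks. Of these, 4 were homozygous for a CRISPR deletion of RE1, a regulatory element in the locus of Nppa and Nppb, which encode the atrial and B-type natriuretic peptides, and 4 were wild-type littermates. The labels do not give the coordinates of RE1, how many founder lines were used, or whether tissue was pooled. Their protocol text also names Myh6-MerCreMer, nTnG and Sun1/sfGFP mice bred to FVB/N, without saying that any of these 8 animals carried those alleles. Nothing in the labels says how many preparations stand behind a library beyond 1 sample each, so p-values measure the spread between these samples.

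Mitochondria carry their own small genome, and its messenger RNAs encode core subunits of the respiratory chain and of ATP synthase. They are translated by a dedicated ribosome, the mitoribosome, in which the 12S and 16S ribosomal RNAs from the mitochondrial genome are joined by proteins made in the cytosol from nuclear genes and then imported. Many of these proteins have counterparts in bacterial ribosomes, and the others occur only in mitochondria. In heart muscle, which relies on oxidative phosphorylation for most of its ATP, this ribosome is needed for the assembly of the respiratory complexes.

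Gene counts totalled 16778368 to 37133306 per library, and the 75 genes took 0.172% to 0.190% of them. All 75 passed the filter on low counts, and a single gene had between 45 and 3806 counts in a library, so no value of a member rests on a handful of reads. Nppa was at 15.9 ± 5.34 CPM (counts scaled to the library total with TMM factors; mean ± SD, n = 4) in the controls, against 0.261 ± 0.0862 CPM in knockout ventricles, and Nppb at 113 ± 44.4 and 0.230 ± 0.166 CPM. The knockout libraries fell into pairs. Replicates 1 and 3 differed from each other by a mean chi-square per gene of 3.14, and replicates 2 and 4 by 3.54, whereas knockout libraries of different pairs differed by 14.2 to 16.1. Wild-type libraries differed from each other by 4.96 to 13.0. Knockout replicates 2 and 4 also had the lowest shares of mitochondrial rRNA, so results are given with and without them where they differ. The 6 cardiomyocyte markers summed to 42912 to 46831 CPM in wild-type and 43945 to 47467 CPM in knockout libraries. Of the 3 atrial markers, which should be low in a left ventricle, only 1 was among the tested genes. It was at 0.806 to 2.35 CPM over all libraries.

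In wild-type ventricles the messages of the mitoribosome were present at unequal levels. Counts were divided by the union of exon length, which was known for 74 of the 75 genes. The identifier given for Mrpl33, ENSMUSG00000029142, is absent from the annotation used, GENCODE M21. The levels spanned 46.1-fold, from 1.06 CPM per kb for Mrps34 to 48.8 CPM per kb for Mrps21, with a median of 8.82. The median was 10.2 CPM per kb over the large subunit genes and 6.10 over the small subunit genes, a ratio of 1.66 with an SD of 0.134 over the 4 wild-type libraries. Most steps in the order were smaller than the spread between mice: in 68 of 73 pairs of neighbours in rank the ranges of the 4 wild-type libraries overlapped.

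**Figure D1:**
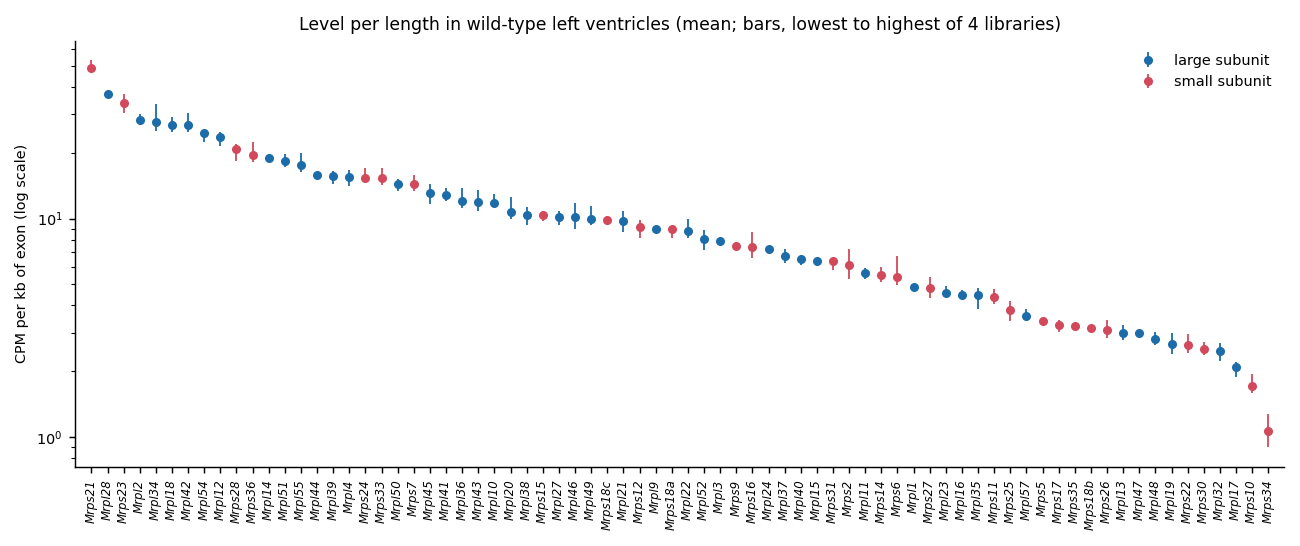
Level of 74 mitochondrial ribosomal protein genes in wild-type left ventricles, as CPM per kb of exon on a log axis. Points are means and bars run from the lowest to the highest of 4 libraries, in blue for large and red for small subunit genes. The levels fall from 48.8 for Mrps21 to 1.06 for Mrps34, and the bars of most neighbours overlap.

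Mrps21, a homologue of bacterial protein S21 in the small subunit, stood first, apart from the next gene, at 48.8 ± 2.91 CPM per kb (mean ± SD, n = 4). Mrpl28 followed at 37.3 ± 0.642 and Mrps23, a protein found only in mitochondrial ribosomes, at 33.9 ± 2.78 CPM per kb. Mrpl2, whose bacterial counterpart lies beside the peptidyl transferase centre, was at 28.2 ± 1.59 CPM per kb. Mrpl34, with the shortest exon length of the set, was at 27.8 ± 3.76 and Mrps28 at 20.8 ± 1.65 CPM per kb. These were named as the 3 highest of each subunit, so both subunits are among them by choice. In the full order the genes at ranks 4 to 9 were all of the large subunit, and Mrps28 was at rank 10.

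At the lower end, Mrps34 was at 1.06 ± 0.159 CPM per kb and lay apart from Mrps10, at 1.71 ± 0.157 CPM per kb. Mrpl17 was at 2.09 ± 0.152, Mrpl32 at 2.47 ± 0.243, Mrps30 at 2.53 ± 0.140 and Mrpl19 at 2.66 ± 0.248 CPM per kb. The length used matters for some genes. Per kb of the longest transcript instead of the exon union, Mrps10 was at 3.37 ± 0.310 CPM per kb and Mrps30 at 4.44 ± 0.245, and 21 of the 74 levels were over 1.5 times higher, up to 2.38 times. Mrps34, at 1.16, was then followed by Mrpl17, at 2.18, while Mrps21, at 73.9, Mrpl28 and Mrps23 still stood first, and the span was 63.7-fold. The ratio of the subunit medians was 1.65 on that scale. Some of these values also depend on how reads were assigned. Of the exon bases of Mrps34, 63.4% lie opposite Mapk8ip3 and 37.0% on the same strand as Nme3, and of those of Mrpl19, 36.0% lie opposite Gcfc2. The strand setting of the counting was not given in the sources used here, and reads from such stretches may have been split or dropped. In all, 8 genes had at least 20% of their exon bases opposite another gene, namely Mrpl19, Mrpl24, Mrpl43, Mrpl47, Mrps18b, Mrps25, Mrps27 and Mrps34. Of the 74 genes, 38 shared no 100-base stretch with the exons of another gene.

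The comparison of knockout with wild-type ventricles asks whether loss of the RE1 element goes along with a change in these genes. None of the 75 passed the quasi-likelihood F test of edgeR at an adjusted p of 0.05, where 0.375% of 16551 tested genes were called higher and 0.689% lower in the knockout. The lowest adjusted p was 0.125, for Mrpl40. At an unadjusted p under 0.05 the same test gave 8 genes, all with higher values in the knockout and 0 with lower, against 6.11% and 6.90% of all tested genes. DESeq2 gave 0 calls and 5 genes at an unadjusted p under 0.05, all higher, and limma-voom 0 calls and 9 genes, 8 of them higher. In the authors' deposited table, likewise, 0 of the 75 had an adjusted p under 0.05, and the lowest adjusted p was 0.0819. There 7 had a p under 0.05, all higher in the knockout except Mrpl39, at −0.11.

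The differences were small and mostly of the same sign. The log2 fold change (knockout over wild-type) was positive for 63 of the 75 genes and negative for 12, where 50.03% of all tested genes had a positive value. Its median was 0.06, or 4.54%, against 0.0001 over all tested genes and −0.0036 over the 9804 protein-coding genes within the same range of counts. For 65 genes the difference was within 10%. The standard errors ran from 0.04 to 0.21, with a median of 0.07, so for the typical gene the difference was about as large as its error. In 5 genes (Mrpl40, Mrps18a, Mrps18b, Mrpl1 and Mrpl15) every knockout library lay above every wild-type library, and in 0 genes was the reverse seen, where 3.32% and 3.83% of all tested genes were separated in this way. Without knockout replicates 2 and 4 there were again 0 calls, 66 positive values and a median of 0.10.

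**Figure D2:**
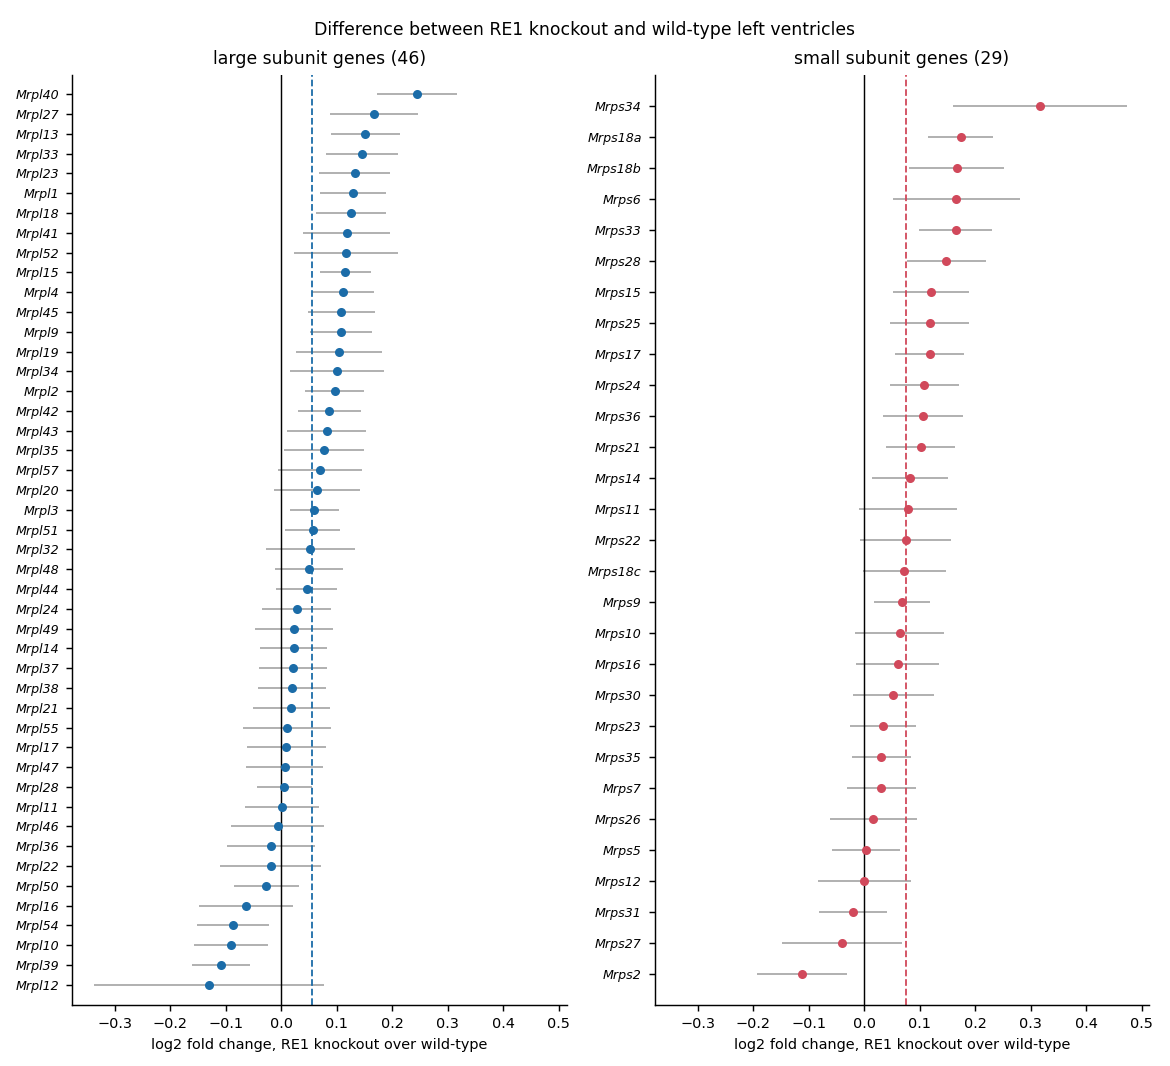
Log2 fold change of each of the 75 genes, RE1 knockout over wild-type, with bars of 1 standard error from the edgeR test, for large (left) and small (right) subunit genes. The dashed line marks the median of each subunit, 0.05 and 0.07, and 37 of 46 and 26 of 29 points lie to the right of 0.

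By subunit, 37 of 46 large subunit genes had a positive value, with a median of 0.05 (3.84%), and 26 of 29 small subunit genes, with a median of 0.07 (5.32%). The medians differed by 0.02 with the large subunit lower. A related measure is the median deviation of the genes from their own means in each library, described below. By it the knockout libraries were on average 0.057 higher for the large and 0.093 higher for the small subunit. These values lie slightly further apart than the SD of 0.03 between replicates of the large minus small median deviation. The difference of the median fold changes depended on the fit. It was −0.064, with a small subunit median of 0.14, without knockout replicates 2 and 4, and −0.077 with a clock index as a covariate. It turned to 0.013 with the level of mesothelial markers as a covariate (the index and these markers are described below). Among large subunit proteins (with Mrps18a, Mrps30 and Gadd45gip1 counted there by their place in the particle), 25 of 30 with a bacterial counterpart and 16 of 21 specific to mitochondria had positive values, with medians of 0.06 and 0.05. Among small subunit proteins, 15 of 16 and 12 of 14 had positive values, with medians of 0.08 and 0.07. No gene of these classes passed the test. When the genes were assigned to subunits by structure, the medians were 0.05 and 0.07.

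Among the large subunit genes, Mrpl40 (ENSMUSG00000022706, chr16:18872018-18876862, minus strand) had the smallest p. It encodes a protein specific to the mitochondrial large subunit, and in humans its gene lies in the region lost in 22q11 deletion syndrome. The wild-type libraries had 11.9, 11.6, 10.8 and 11.8 CPM and the knockout libraries 13.4, 13.7, 13.0 and 14.6 CPM. All 4 knockout values lay above the wild-type values, with replicate 4 on top. The log2 fold change was 0.24 (SE 0.07, adjusted p = 0.125 by edgeR's quasi-likelihood test), which did not pass the threshold. Of 217 genes on the pathway and marker lists, Pdgfra, Nfil3 and Gsn followed Mrpl40 most closely over the 8 libraries, with Pearson r of 0.975, 0.972 and 0.920. Those 3 genes were each called higher in the knockout, so the correlations hold the difference between the groups as well as the variation within them.

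Mrpl15 (ENSMUSG00000033845, chr1:4773206-4785739, minus strand), a homologue of bacterial protein L15, had 54.9, 56.2, 55.4 and 51.4 CPM in wild-type and 60.0, 57.8, 58.4 and 60.0 CPM in knockout libraries. Its groups were separated by a narrow margin, and the log2 fold change was 0.12 (SE 0.05, adjusted p = 0.287, edgeR). Mrpl1 (ENSMUSG00000029486), the protein of the mobile stalk beside the tRNA exit site, had 20.5 to 21.5 CPM in wild-type and 21.9 to 24.7 CPM in knockout libraries. The groups did not overlap, yet knockout replicate 3 lay well above the other 3, and the log2 fold change was 0.13 (SE 0.06, adjusted p = 0.361, edgeR). Mrpl13 and Mrpl33, with log2 fold changes of 0.15 and 0.14, completed the 5 large subunit genes with the smallest p. Mrpl13 had 22.0 to 25.8 CPM in wild-type and 24.7 to 27.6 CPM in knockout libraries, and Mrpl33 had 25.9 to 30.5 and 27.9 to 33.0 CPM, so that both overlapped between the groups.

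**Figure D3:**
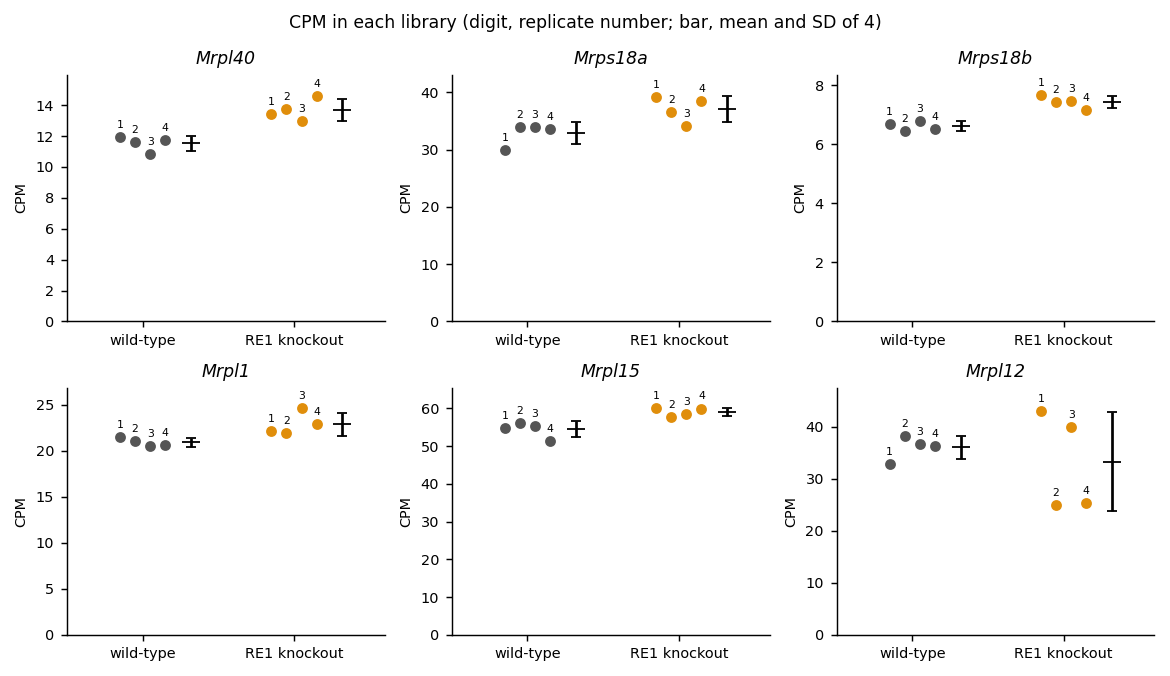
CPM of 6 genes in each of 4 wild-type (grey) and 4 RE1 knockout (orange) libraries, with replicate numbers above the points and bars for the mean and SD. The groups do not overlap for Mrpl40, Mrps18a, Mrps18b, Mrpl1 and Mrpl15, while Mrpl12 has knockout replicates 2 and 4 at 25.0 and 25.3 CPM and replicates 1 and 3 at 43.1 and 40.0 CPM.

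Among the small subunit genes by symbol, Mrps18a had the smallest p. Mammals have 3 paralogues of bacterial protein S18, and in the structure of the mammalian particle the product of Mrps18a sits in the large subunit, while those of Mrps18b and Mrps18c sit in the small subunit. Mrps18a (ENSMUSG00000023967, chr17:46110986-46128910, plus strand) had 30.0, 34.0, 34.0 and 33.7 CPM in wild-type and 39.3, 36.6, 34.0 and 38.5 CPM in knockout libraries. The groups touched, since knockout replicate 3 exceeded the highest wild-type library only in the second decimal. The log2 fold change was 0.17 (SE 0.06, adjusted p = 0.194, edgeR).

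Mrps18b (ENSMUSG00000024436) had 6.45 to 6.80 CPM in wild-type and 7.17 to 7.68 CPM in knockout libraries, without overlap. Its log2 fold change was 0.17 (SE 0.09, adjusted p = 0.437, edgeR), and 30.5% of its exon bases lie opposite Gm16279. Mrps18c (ENSMUSG00000016833) had 10.1 to 11.0 and 10.6 to 11.8 CPM and a log2 fold change of 0.07 (SE 0.07, adjusted p = 0.736, edgeR), with overlapping groups. Thus all 3 paralogues had positive values and none passed the test.

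Mrps33, a mitochondria-specific protein of the small subunit, had 23.7 to 28.5 CPM in wild-type and 26.6 to 30.6 CPM in knockout libraries, which overlapped, and a log2 fold change of 0.16. Mrps28 had 14.4 to 17.3 and 16.8 to 19.5 CPM and a log2 fold change of 0.15, again with overlap. Mrps34 had the highest log2 fold change of the 75, 0.32, but also the lowest counts, with 1.85 to 2.62 CPM in wild-type and 2.30 to 2.93 CPM in knockout libraries, an SE of 0.16 and the overlaps with Mapk8ip3 and Nme3 given above. Adjusted p-values of these 3 genes were 0.291, 0.392 and 0.410 (edgeR). Mrps30, whose product also sits in the large subunit, had a log2 fold change of 0.05 (SE 0.07), and Mrps36, whose product is known as a subunit of the 2-oxoglutarate dehydrogenase complex rather than of the ribosome, one of 0.11 (SE 0.07).

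Most genes with a high level per length showed differences of the same small size. The log2 fold change was 0.10 for Mrps21, 0.01 for Mrpl28, 0.03 for Mrps23, 0.10 for Mrpl2 and 0.10 for Mrpl34, each with an SE of 0.05 to 0.08. Larger values, given above, were those of Mrps28 among the high genes, at 0.15, and of Mrps34, the lowest gene, at 0.32. Of the other low genes, Mrps10 was at 0.06, Mrpl17 at 0.01, Mrpl32 at 0.05 and Mrpl19 at 0.10, with SEs of 0.07 to 0.08. The negative values were as small: besides Mrpl12, described below, only Mrps2, at −0.11 (SE 0.08), and Mrpl39, at −0.11 (SE 0.05, adjusted p = 0.388, edgeR), were below −0.10. Mrpl39, chosen for description after its values were seen, had 36.5 to 41.9 CPM in wild-type and 35.9 to 37.9 CPM in knockout libraries, so the groups overlapped.

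Library by library, the groups overlapped for both subunits. In each library the deviation of every gene from its mean log2 CPM over the 8 libraries was taken, and the median of these is given. For the large subunit it was −0.07, 0.07, −0.02 and −0.08 in the wild-type libraries 1 to 4, against 0.03, 0.004, 0.07 and 0.03 in the knockout libraries 1 to 4. For the small subunit it was −0.06, 0.01, −0.04 and −0.10 in the controls, against 0.07, 0.02, 0.09 and −0.004 in the knockout libraries. Wild-type replicate 2 had the highest large subunit value of all 8 libraries, and wild-type replicate 2 and knockout replicate 4 overlapped for the small subunit. Without wild-type replicate 2 the median log2 fold change over the 75 genes was 0.09 and 18 genes had an unadjusted p under 0.05, and without wild-type replicate 4 the median was 0.04.

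**Figure D4:**
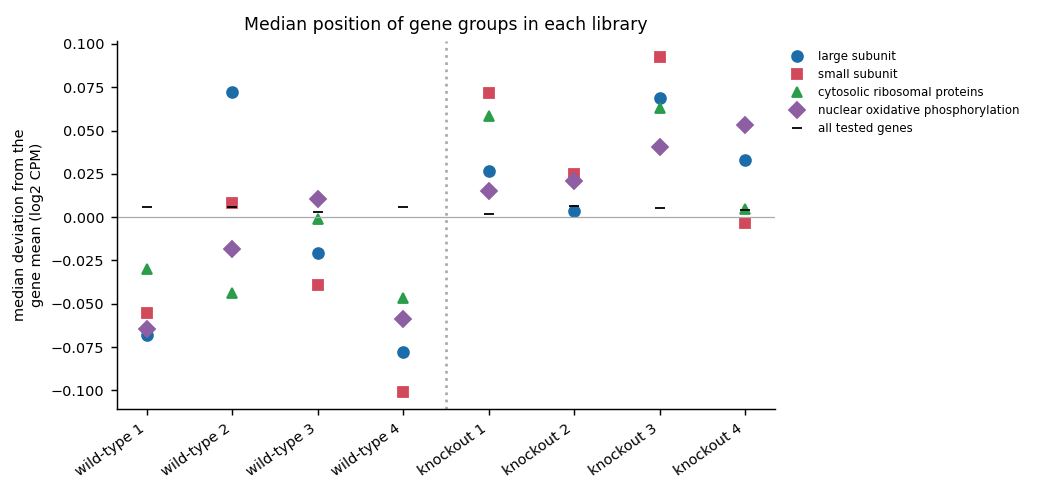
Median deviation from the gene mean (log2 CPM) in each library for large and small subunit genes, 78 cytosolic ribosomal protein genes, 81 nuclear oxidative phosphorylation genes and all tested genes. Large subunit genes lie at 0.07 in wild-type replicate 2, above the 4 knockout libraries, and all tested genes lie near 0 throughout.

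Summed CPM gave the same picture. Large subunit genes summed to 1187 ± 53.3 CPM in wild-type and 1232 ± 24.1 CPM in knockout ventricles, and small subunit genes to 588 ± 22.9 and 619 ± 18.7 CPM (mean ± SD, n = 4 each). The ratio of large to small was 2.02 ± 0.0149 in the controls, against 1.99 ± 0.0285 in knockout libraries, with ranges of 2.01 to 2.04 and 1.96 to 2.03. These overlapped only through knockout replicate 4, at 2.03. Knockout replicates 1, 2 and 3, at 1.96, 1.99 and 1.97, lay below the wild-type range. Without knockout replicates 2 and 4 the groups therefore did not overlap, and the difference was not tested. Over all 2775 pairs of the 75 genes, the median Pearson r of log2 CPM over the 8 libraries was 0.289. It was 0.283 for pairs within the large subunit, 0.279 within the small subunit and 0.301 between them, as a description of libraries that share their scaling.

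Medians of the same size were seen in other gene groups. The median log2 fold change was 0.07 over 78 cytosolic ribosomal protein genes (70 positive, 1 called higher) and 0.07 over 81 nuclear oxidative phosphorylation genes (77 positive, 0 called). In these lists 17 of 78 and 20 of 81 genes had higher values at an unadjusted p under 0.05, against 8 of the 75. Unlike those of both mitoribosomal subunits, their median deviations did not overlap between the groups of libraries. For the cytosolic ribosome the controls lay between −0.047 and −0.001 and the knockouts between 0.005 and 0.063. For oxidative phosphorylation the controls lay between −0.065 and 0.011 and the knockouts between 0.015 and 0.053. The differences between the lists were not tested. Members had shorter exons than other genes, with a median of 2214 against 4519 bases over 13247 tested protein-coding genes, and a like GC content of 49.8% against 49.7%. With an offset for exon length in each library the subunit medians were 0.06 and 0.08, and with an offset for GC content 0.05 and 0.07. In these bulk samples, fewer cells of a type and less RNA per cell cannot be told apart.

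Some markers of other cells and of time of day also differed between the groups, and others did not. All 6 cardiomyocyte markers had positive values, with a median of 0.07 and 0 calls, and their summed CPM, given above, overlapped between the groups. All 5 fibroblast markers had positive values and Pdgfra and Gsn were called higher, with summed CPM of 1197 to 1288 in wild-type and 1384 to 1504 in knockout libraries. All 5 endothelial markers had negative values and Cav1 was called lower (summed CPM 613 to 662 and 547 to 608). The 4 mesothelial markers summed to 0.745 to 9.08 and 3.62 to 19.3 CPM, with 0 calls. Mural, macrophage and erythroid markers also had 0 calls, and their sums overlapped between wild-type and knockout libraries. These were 623 to 640 and 623 to 666 CPM for mural and 59.8 to 78.2 and 63.4 to 70.7 CPM for macrophage markers. For erythroid markers they were 861 to 1269 and 991 to 1750 CPM. Of 12 clock genes, Npas2 and Nfil3 were called higher and Nr1d1 and Nr1d2 lower, and a clock index (mean log2 CPM of Arntl, Npas2, Clock and Nfil3 minus that of the other 8 genes) lay between −3.43 and −1.64 in the controls, against −1.21 to −0.23 in the knockout. With the clock index as a covariate the median over the 75 genes was 0.15, and with the mean log2 CPM of the mesothelial markers 0.11, each with 0 calls. Since the clock index did not overlap between the groups, its part cannot be told apart from that of the group. Hardly any of all tested genes were called under these 2 fits, as given at the end, so 0 calls among the members says little. The part of the cardiomyocyte, fibroblast and endothelial markers in these values was not tested.

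The RNA core of the mitoribosome was counted in the same libraries, as a share of all counts. Such a share is not a measured amount of rRNA in the tissue, and any effect of library preparation on it was not tested. The 12S and 16S rRNAs, mt-Rnr1 and mt-Rnr2, took 10.1%, 8.51%, 10.5% and 9.67% of the counts in the wild-type libraries 1 to 4, against 9.40%, 6.40%, 9.01% and 6.19% in the knockout libraries 1 to 4. Knockout replicates 1 and 3 lay within the wild-type range and replicates 2 and 4 below it. The means were 9.69% ± 0.854 and 7.75% ± 1.69 (SD, n = 4), and the difference of −1.94 percentage points did not pass a two-sided exact permutation test over the 70 assignments of libraries (p = 0.114, where the smallest possible is 0.0286). With the share as a covariate the median over the 75 protein genes was 0.07, with 0 calls.

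Mrpl12, chosen for description after its values were seen, had the highest coefficient of variation of the 75 among the knockout libraries, 28.5%, where the median was 5.42%. It encodes a protein of the stalk that recruits translation factors, and it is also known to bind the mitochondrial RNA polymerase. It (ENSMUSG00000039640, chr11:120484613-120489065, plus strand) had 33.0, 38.2, 36.8 and 36.4 CPM in wild-type and 43.1, 25.0, 40.0 and 25.3 CPM in knockout replicates 1 to 4. Knockout replicates 2 and 4, the libraries with the lowest rRNA shares, were 33.6% below the mean of the other 6, which ran from 33.0 to 43.1 CPM. The log2 fold change was −0.13 (SE 0.21, adjusted p = 0.853, edgeR) and 0.20 without replicates 2 and 4. These replicates were also below the other 6 libraries for Mrpl39 and Mrpl16 and above them for Mrpl40, Mrpl28 and Mrpl33, 3 of the 75 each way with Mrpl12, where 5.18% of all tested genes had both below and 4.30% both above. Of the exon bases of Mrpl12, 13.1% lie opposite Gm16755.

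**Figure D5:**
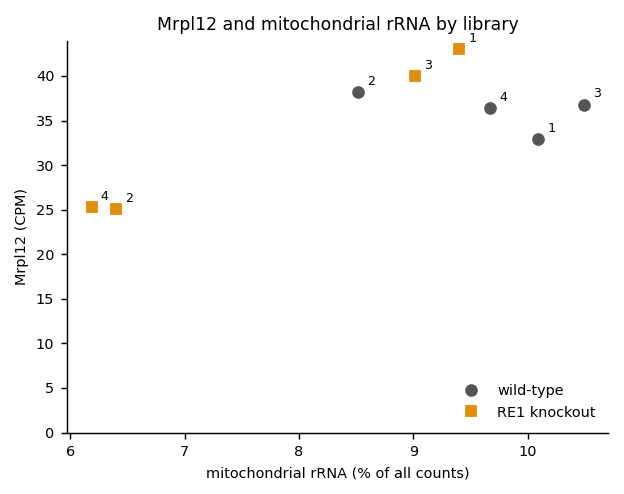
Mrpl12 (CPM) against the share of mitochondrial rRNA in all counts (%), by library, with replicate numbers beside the points. Knockout replicates 2 and 4 lie at 25.0 and 25.3 CPM and shares of 6.40% and 6.19%, apart from the other 6 libraries at 33.0 to 43.1 CPM and 8.51% to 10.5%.

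The subunits without an Mrp symbol and the factors that work with the ribosome had 0 calls. Of 5 such subunits (Dap3, Ptcd3, Chchd1, Aurkaip1 and Gadd45gip1), 4 had positive values, with a median of 0.07. The genes outside the symbol rule were alike, at 0.12 (SE 0.06) for Mrpl30 and 0.13 (SE 0.06) for Mrpl58, a peptide release factor built into the large subunit. All of these genes are also counted in the classes of protein given above. Of 16 tested translation factors 14 had positive values (median 0.05). Among them Taco1, which activates translation of the mt-Co1 message, was at 0.16 (SE 0.07), and Mtif2, the initiation factor, at 0.15 (SE 0.07). Adjusted p-values were 0.338 and 0.367 (edgeR).

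Genes that assemble the particle were evenly split in sign. Of 24 assembly factors, 12 had positive and 12 negative values (median −0.003), among them Tfb1m, which methylates the 12S rRNA, at 0.22 (SE 0.11), and Mrm2, which methylates the 16S rRNA, at −0.24 (SE 0.13). Of 17 mitochondrial tRNA synthetases 10 had positive values (median 0.02), with Nars2 at −0.13 (SE 0.08) and Fars2 at 0.08 (SE 0.05). Of 11 genes for mitochondrial DNA transcription and upkeep 8 had positive values (median 0.05), with the helicase Twnk at −0.13 (SE 0.06) and Pnpt1, a mitochondrial polynucleotide phosphorylase, at 0.14 (SE 0.07). The lowest adjusted p of these 3 lists was 0.376 (edgeR).

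Most messages that the mitoribosome translates had negative values, again without a call. Of 13 mitochondrial mRNAs 10 had negative values, with a median of −0.11. For mt-Nd4, a subunit of complex I, the level was 1378 ± 60.1 CPM in wild-type and 1210 ± 130 CPM in knockout libraries (log2 fold change −0.19, SE 0.06, adjusted p = 0.230, edgeR), and for mt-Nd5 it was 1007 ± 141 and 824 ± 76.1 CPM (−0.29, SE 0.11, adjusted p = 0.321, edgeR). Both had every knockout library below every wild-type library. Stretches of the mitochondrial genome have near-identical copies in the nuclear genome, so these values are uncertain. Of 10 nuclear regulators of mitochondrial genes, 4 had positive and 6 negative values, with a median of −0.05. Among them Ppargc1b and Ppargc1a, coactivators that drive mitochondrial biogenesis, were at −0.18 (SE 0.06) and −0.34 (SE 0.11), with adjusted p-values of 0.219 and 0.251 (edgeR). Gabpa was at 0.06 (SE 0.05), Nrf1 at −0.03 (SE 0.08) and Yy1 at −0.07 (SE 0.06), whose products bind promoters of such genes.

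The genes lie on 17 chromosomes, and 4 share chromosome 4 with the deleted element: Mrpl20, Mrps15, Mrpl37 and Mrpl50. Measured from Nppb, they lie 7.82, 21.9, 40.9 and 98.5 Mb away, and their log2 fold changes were 0.06, 0.12, 0.02 and −0.03, with adjusted p-values of 0.783, 0.480, 0.929 and 0.892 (edgeR). None of the 4 passed the test.

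Many of the genes start close to a neighbour read in the opposite direction. Of the 74 genes in the annotation, 25 (33.8%) had a protein-coding neighbour in head-to-head arrangement, with starts at most 1000 bases apart or overlapping by up to 500, against 13.4% of 13247 tested protein-coding genes. With overlaps of up to 200 bases these shares were 29.7% and 11.2%. In one case both partners are members: Mrps11, on the plus strand of chromosome 7, and Mrpl46, on the minus strand. Their gene bounds in GENCODE M21 overlap by 412 bases at the starts. By the RefSeq starts used for promoter sequences, the genes do not overlap there. Mrps11 had 8.80 to 10.4 CPM in wild-type and 9.02 to 11.0 CPM in knockout libraries, and Mrpl46 12.7 to 16.7 and 13.4 to 14.9 CPM. Their log2 fold changes were 0.08 (SE 0.09) and −0.01 (SE 0.08), and their Pearson r over the 8 libraries was 0.517, with 12.2% of the exon bases of Mrpl46 opposite those of Mrps11. The pair was chosen for description after its values were seen.

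Promoter sequences from RefSeq (build GRCm38.p6, 250 bases before to 50 after the start) were matched for 66 of the 75 genes. They were searched on both strands for 4 sets of letters. CCGGAAG, bound by the factor GABPA, was found in 23 promoters (34.8%), against 9.12% of all 27025 promoters and 17.7% of 10351 promoters of tested genes. AAGATGGCG, part of the longer motif bound by YY1, was found in 8 (12.1%, against 1.49% and 3.10%), and GCATGCGC, part of the longer motif bound by NRF1, also in 8 (12.1%, against 2.80% and 5.37%). TATAAA was found in 4 (6.06%, against 14.2% and 7.31%). None of the 4 sets of letters is contained in another. The median GC content of the promoters was 58.2%, against 60.7% for tested genes.

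The promoters of 4 genes are shown 5′ to 3′ on the strand of the gene, with any of these motifs in capitals. Mrpl40 (chr16:18876588-18876887, minus strand) is shown as the gene with the smallest p and holds none of them, and Mrps18a (chr17:46110754-46111053, plus strand) as the next gene, which holds a GABPA and a YY1 motif. Mrps11 (chr7:78782881-78783180, plus strand), with a YY1 motif on its opposite strand, and Mrpl46 (chr7:78783040-78783339, minus strand), with TATAAA, are shown because their windows overlap. The end of each sequence is therefore read in the other on the opposite strand. These windows place the start of Mrpl46 lower on the chromosome than that of Mrps11, without an overlap of the genes. In GENCODE M21 Mrpl46 starts at 78783531, beyond its RefSeq window, so the overlap of 412 bases depends on the annotation.
Mrpl40: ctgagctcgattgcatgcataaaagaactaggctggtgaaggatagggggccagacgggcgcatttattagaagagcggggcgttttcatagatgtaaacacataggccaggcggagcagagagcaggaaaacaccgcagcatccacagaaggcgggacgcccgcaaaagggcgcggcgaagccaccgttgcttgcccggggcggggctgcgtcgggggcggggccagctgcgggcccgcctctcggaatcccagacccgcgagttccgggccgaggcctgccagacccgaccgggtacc
Mrps18a: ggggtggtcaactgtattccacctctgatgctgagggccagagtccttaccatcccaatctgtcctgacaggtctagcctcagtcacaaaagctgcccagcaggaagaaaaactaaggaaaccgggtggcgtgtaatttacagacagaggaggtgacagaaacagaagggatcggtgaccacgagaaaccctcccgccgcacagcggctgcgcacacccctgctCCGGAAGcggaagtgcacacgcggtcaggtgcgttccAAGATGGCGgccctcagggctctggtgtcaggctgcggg
Mrps11: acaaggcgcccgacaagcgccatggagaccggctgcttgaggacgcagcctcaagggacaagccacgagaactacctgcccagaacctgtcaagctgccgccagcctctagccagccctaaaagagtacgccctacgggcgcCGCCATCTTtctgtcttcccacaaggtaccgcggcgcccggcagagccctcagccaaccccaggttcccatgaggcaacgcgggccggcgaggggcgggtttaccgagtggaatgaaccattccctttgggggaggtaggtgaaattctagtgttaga
Mrpl46: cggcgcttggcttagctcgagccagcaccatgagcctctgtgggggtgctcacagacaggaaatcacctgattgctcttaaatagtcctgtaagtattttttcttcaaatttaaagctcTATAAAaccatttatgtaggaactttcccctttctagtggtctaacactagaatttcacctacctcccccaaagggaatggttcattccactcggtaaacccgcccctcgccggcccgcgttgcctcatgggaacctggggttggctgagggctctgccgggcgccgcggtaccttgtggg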

How the data were processed

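For 8 left ventricle libraries the authors deposited whole-number counts for each gene and a normalized table. Per the labels' protocols, 900 ng of total RNA went into a strand-specific kit and was read paired-end at 125 bases. The submitters' processing notes list STAR, DESeq2 and mm10 without versions, and the sources used here do not name the counting program. The deposited normalized signal equals the counts divided by 1 size factor per library. The authors' deposited table gives a log2 fold change of wild-type over knockout, whose sign was turned here, beside p-values before and after adjustment.

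Raw counts were tested with edgeR 4.0.16 (R 4.3.3; quasi-likelihood F test, TMM, filterByExpr, group as the only term), and two-sided p-values were Benjamini-Hochberg adjusted over 16551 genes, at a threshold of 0.05. Robust estimation of the prior was taken after 12 combinations of edgeR options had been run, because it gives the counts of an earlier processing of these data. Over the 12, 46 to 65 genes were called higher and 84 to 119 lower, with 0 members called in any. Standard errors were derived from F and the fold change. A prior count of 2 was used for log2 CPM. Levels are TMM-scaled CPM per kb of exon union in GENCODE M21 (GRCm38, the assembly of mm10), and coordinates are from the same source. Gene lists were matched by GENCODE symbol because many symbols in the files are older. The test was checked on simulated counts.

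The members and gene lists were chosen with earlier results of these data known. Genes named are the 5 of each subunit with the smallest p, the 3 highest and 3 lowest of each subunit by level, Mrps18a, Mrps18b, Mrps18c, Mrps30 and Mrps36, and the 2 genes with the smallest p, or all called genes, of other lists. Other genes were named for their position, overlap, symbol or motif, and Mrpl12, Mrpl16, Mrpl39, Mrpl46, Mrps2 and Mrps11 with their values in view. Alternatives were other scaling, filters, tests (DESeq2 1.42.0, limma 3.58.1), thresholds, covariates, offsets, and leaving out libraries. The same-numbered libraries were not treated as pairs. Limma on the normalized values was first run without a trend or robust prior and then with both, and the overlap allowed for head-to-head genes was first 200 and then 500 bases, so that Mrps11 and Mrpl46 were included. Longer forms of the YY1 and NRF1 motifs were searched first and then shortened.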

Additional observations from a re-analysis of the deposited data

Results flagged for a closer look

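Groups of 4 libraries were checked for the genes described, for the subunit medians, sums and ratio, and for the mitochondrial rRNA share. Of these 64 groups, 3 held a library far from the other 3, by the gap to its nearest neighbour as a share of the group's range. Chance flags about 1 in 20 groups. All 3 were wild-type groups. Wild-type replicate 2 was high for Mrpl34, at 20.3 CPM where the others had 15.3 to 16.1 CPM, and for Mrps21, at 39.3 CPM where the others had 34.7 to 35.4 CPM. Wild-type replicate 1 was low for Mrps18a, at 30.0 CPM where the others had 33.7 to 34.0 CPM. Without wild-type replicate 1, the log2 fold change of Mrps18a was 0.13 rather than 0.17.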

How the results depend on the processing

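Under 25 other fits of all 8 or fewer libraries, 0 members were called, 53 to 66 of the 75 had a positive log2 fold change, and their median ran from 0.04 to 0.15, with shifts of all tested genes of −0.004 to 0.003. Of 650 values of the 26 members described, 623 kept their direction and 27, of 7 genes, turned. A further 112 values, of 23 genes, moved by over 1.5 times without turning, 72 up and 40 down in size. With the clock index Mrps18a was at 0.077, Mrpl13 at 0.38, Mrps28 at 0.36 and Mrpl15 at 0.21. The causes of the changes below were not tested. Counts over all genes moved by over 1.5 times: to 269 higher and 374 lower without a low-count filter, 107 and 180 by DESeq2, 17 and 20 without knockout replicates 2 and 4, 36 and 52 with the mitochondrial rRNA share, 0 and 1 with the clock index, 0 and 10 with the mesothelial index, 1 and 2 by limma without a trend or robust prior, 128 and 218 at a threshold of 0.1, and 8 and 24 at 0.01. Leaving out each library in turn gave 8 (without knockout replicate 2) to 108 (without wild-type replicate 4) higher and 28 to 151 lower. Without wild-type replicate 1 they were 16 and 34, 30 and 52 without replicate 1 of the knockout, 36 and 68 without its replicate 3, and 72 lower without wild-type replicate 2. The small subunit median was 0.14, and the large minus small difference −0.064, without knockout replicates 2 and 4. With the clock index the large and small medians were 0.13 and 0.21 and the difference −0.077, and with the mesothelial index the large median was 0.12 and the difference 0.013.

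Leaving out each library gave −0.069 to 0.075 for Mrpl46, −0.022 to 0.041 for Mrpl28, −0.046 to 0.036 for Mrpl17 and −0.016 to 0.083 for Mrps23. Without knockout replicates 2 and 4, Mrpl28 was at −0.059, Mrpl12 at 0.20 and Mrpl46 at 0.027. With the rRNA share, Mrpl28 was at −0.062, Mrpl17 at −0.027 and Mrpl12 at 0.19. With the clock index, Mrpl33 was at −0.016, Mrpl28 at −0.070, Mrpl17 at −0.099, Mrpl12 at 0.28, Mrpl39 at 0.068 and Mrpl46 at 0.11, and with the mesothelial index Mrpl46 was at 0.13. Mrpl46 was at 0.0013 by limma-voom and 0.0021 with the GC offset, where Mrpl17 was at −0.0030, and Mrpl28 at −0.0089 with the length offset. Same-numbered libraries did not deviate together (correlations of −0.08 to 0.02), so the numbers were not read as pairing. With a replicate block 70 genes were higher and 116 lower, with 0 members called and subunit medians within the spread between replicates. Mrps34 had the lowest counts, and the standard errors of single genes, 0.04 to 0.21, had a median about as large as the median difference.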
